A study of Mus musculus with 8 samples.

Results

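The genes described here are 32 of the 33 genes of a list of lysosome and autophagy genes, out of 22180 genes measured under a single symbol. They are 13 acid hydrolases of the lysosomal lumen, 4 genes for lipid export, hydrolase activators and secreted precursors, 6 membrane glycoproteins, a cation channel with 3 proton pump subunits, the transcription factor Tfeb and 4 autophagy proteins. The members were chosen by name, with earlier results of these data known. For each, the probe set with the highest mean signal over the arrays was taken among those with that symbol only. Glb1, the remaining gene of the list, had no probe set with its symbol alone and was not analysed here.

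Lysosomes are acidified by a proton pumping ATPase (V-ATPase) and hold hydrolases that degrade proteins, glycans and lipids delivered by endocytosis and autophagy. Many of their genes share a promoter element bound by TFEB and its relatives, which enter the nucleus when the kinase MTORC1 is inactive. STING, the endoplasmic reticulum adaptor for cytosolic DNA sensing, is itself delivered to lysosomes and degraded there after activation, and it can also trigger lipidation of the autophagosome protein LC3.

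All cells were mouse embryonic fibroblasts (MEFs), labelled as primary, that lack endogenous STING. The groups carried the empty retroviral vector pBabe (vector cells), human STING (hSTING), its mutant N154S, which the series' design text names as a mutant of the disease SAVI, or the variant R284S. Each construct was measured in a control culture and in a culture given double-stranded DNA (dsDNA) with Lipofectamine 2000 and harvested at 9 h. Each of the 8 combinations had a single array, so a difference of 2 arrays has no replicate check. A single population stood for each line, and the labels do not say whether control cells received the transfection reagent alone. Whether the constructs were expressed at equal levels was not measured here, since no probe set was read for the human sequence.

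Signals are log2 values as deposited, and all differences are on the log2 scale. An array signal has no true zero, and the precision is limited by the number of arrays. The median of the 22180 genes lay between 4.42 and 4.47 on the 8 arrays and serves as the mark below which a signal is called dim. All 8 arrays had 30 members above it, and Ctss and Tfeb were dim throughout. The signal of Sting1 lay between 3.68 and 4.22, and the labels do not say what part of the gene the deletion removed, so it checks no label. The interferon-induced modifier Isg15 read 6.17, 10.74, 11.05 and 10.89 in control cells and 8.34, 11.46, 11.27 and 10.92 with dsDNA, in the order vector, hSTING, N154S and R284S, which is the order of all sets of 4 values below. Interferon-induced genes thus also differed between the lines, and their part in the results was not tested. All 10 fibroblast markers were above the median on every array. Of 12 macrophage markers 8 were below it on every array, as were 5 of 6 osteoclast and 6 of 6 melanocyte markers, and the highest macrophage marker, Cd53, lay between 4.85 and 5.59. In these bulk samples, fewer cells of a type and less RNA per cell cannot be told apart.

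The arrays were fitted in limma with construct and treatment as additive terms, so that a difference between lines is an average over control and dsDNA cells, and a gene passed at a Benjamini-Hochberg adjusted p of 0.05 over all genes. The spread in this fit is the unevenness of the dsDNA effect between lines, not that of replicate cultures. Comparisons with vector cells share the same 2 vector arrays. Below, a member passed or did not pass in this fit unless another setting is named.

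Lysosomal genes were higher in the lines with the STING mutants than in vector cells, by small amounts, and this held for most members. In R284S cells 26 of 32 members had a positive fitted difference and 4 a negative one, with a median of 0.28 against 0.01 for all genes, 51.4% of which were positive. The 3 members that passed were Gpnmb, Gla and Npc2, and all of them rose, where 1.02% of all genes rose and 1.02% fell. In N154S cells 25 members were positive and 7 negative, with a median of 0.19 against 0.01 for all genes, 50.2% of which were positive. Gla and Npc2 passed there, both rising, against 0.708% of all genes rising and 0.609% falling. In hSTING cells 16 members were positive and 16 negative, with a median of 0.00, where 46.8% of all genes were positive. There 0 members passed in limma, against 0.0992% of all genes that rose, and 0 passed under the trended and robust form of the test. Of the members 4, Gla, Npc2, Grn and Scarb2, had an unadjusted p under 0.05 in limma, where 9.28% of all genes did. Among genes at or above the median mean signal, 50.5%, 46.7% and 40.4% were positive in R284S, N154S and hSTING cells. The shares of all genes with an unadjusted p under 0.05, here and below, include dim genes. In the limma fit limited to the 11091 brighter genes, 1541 had such a p for hSTING against vector. There 2526 had one for R284S against hSTING, 1573 for N154S against hSTING and 1158 for R284S against N154S. For dsDNA against control 1889 had one, and 221 for the dsDNA effect in STING lines against vector cells.

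**Figure D1:**
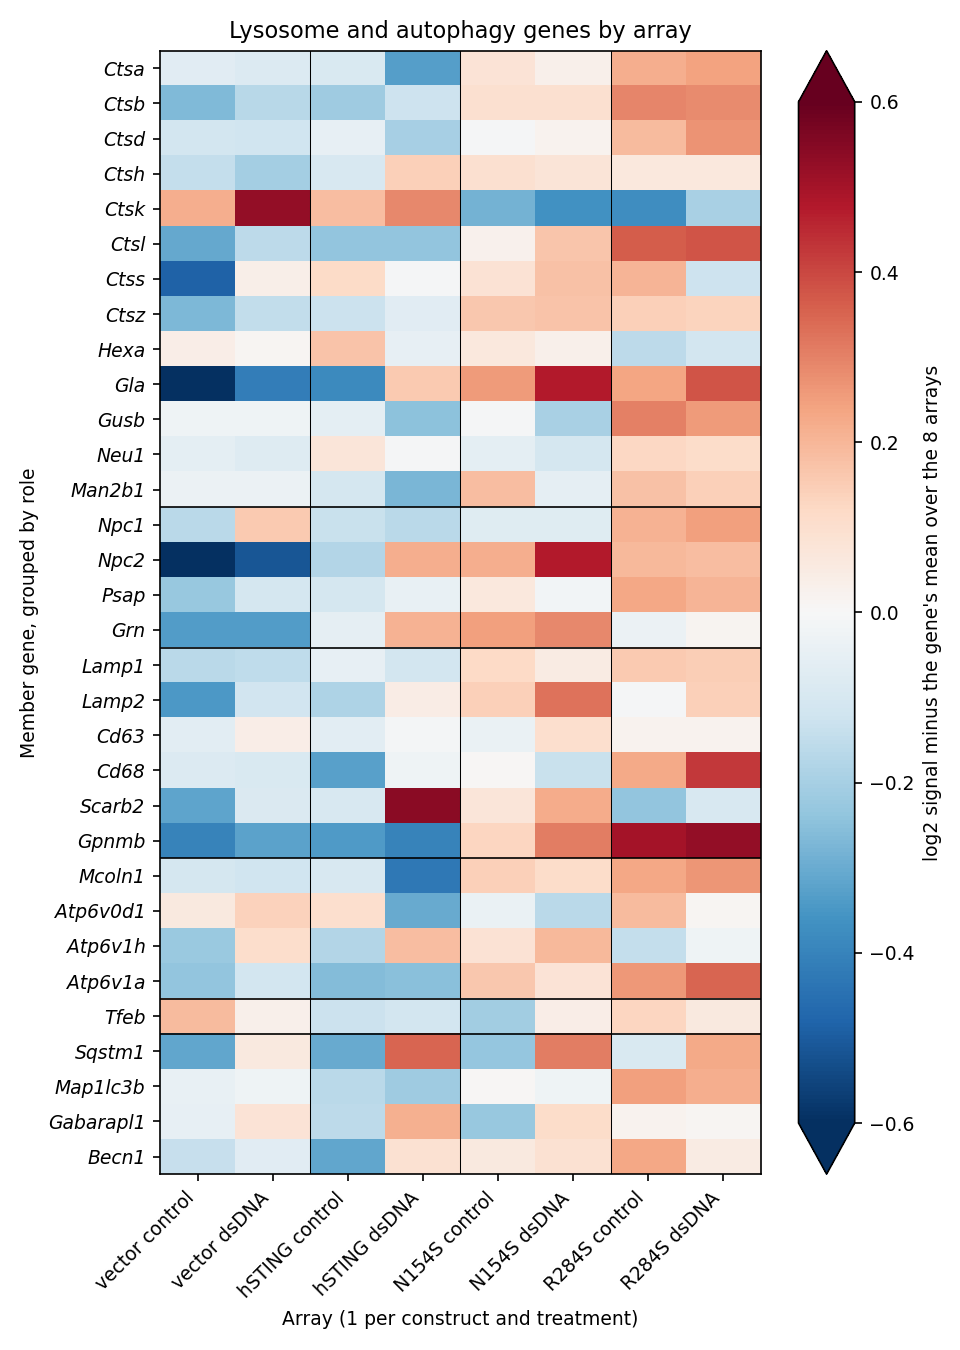
Log2 signal of each of the 32 members minus that gene's mean over the 8 arrays (colour, saturating at 0.6 either way), with arrays in columns and members in rows by role, from acid hydrolases at the top to autophagy proteins at the bottom. Red prevails in the N154S and R284S columns and blue in the vector and hSTING columns, with Ctsk the other way round.

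The same can be read from the arrays without a fit. The 2 R284S arrays lay above both vector arrays for 22 of 32 members, against 24.1% of all genes, and below them for Ctsk and Hexa, against 22.7%. The 2 N154S arrays lay above both vector arrays for 18 members (22.5% of all genes) and below them for Ctsk and Atp6v0d1 (22.9%). The 2 hSTING arrays lay above both vector arrays for 7 members (15.4%), Ctsh, Ctsz, Gla, Neu1, Npc2, Grn and Lamp1, and below them for 6 (19.2%), Ctsa, Gusb, Man2b1, Atp6v1a, Tfeb and Map1lc3b. All 4 mutant arrays were above all 4 vector and hSTING arrays for 11 members, against 4.43% of all genes, namely Ctsa, Ctsb, Ctsd, Ctsl, Ctsz, Gla, Psap, Lamp1, Gpnmb, Mcoln1 and Atp6v1a. Ctsk was the member with all 4 mutant arrays below the others, against 3.67% of all genes. Among the 4 control arrays, that of R284S was the highest for 20 members, where it was highest for 25.9% of all genes, and that of vector cells was the lowest for 20, against 26.2%. The shares for the order of arrays, here and below, are over all genes, dim ones included. They were not computed for genes at or above the median mean signal alone. 

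At a difference of 1.5-fold between control arrays, which has no test, R284S cells had Gla, Gpnmb, Npc2 and Ctsl higher than vector cells, against 2.89% of all genes, and Ctsk lower, against 2.4%. N154S cells had Gla and Npc2 higher (2.54% of all genes) and 0 members lower (2.04%). Between hSTING and vector cells 0 members differed by that much (0.748% of all genes higher and 0.338% lower). Against hSTING cells, R284S had Gpnmb, Gla and Ctsl higher (2.33%) and 0 lower (1.94%), and N154S had Gla higher (1.87%) and 0 lower (1.42%). The mutant lines differed from each other in 0 members (0.861% of all genes higher in R284S and 1.1% lower). A gene counted only where the brighter of the 2 signals reached its array's median, while the shares are over all 22180 genes. As 30 members were above the median on every array, the shares understate the background for them.

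Sequences upstream of members are shown for the letters of the element that TFEB and related factors bind. Whether that element had a part in the differences between lines was not tested. RefSeq promoter windows of GRCm38.p6, from 250 bases before to 50 bases after a gene's start, were matched for 27 of the 32 members by symbol, and those not matched were Ctsb, Ctsh, Npc1, Atp6v1h and Becn1. The E-box CACGTG, which reads the same on both strands, was in a window of 8 of these 27 members, against 8.09% of all 27025 genes and 7.15% of all 32851 windows. Its longer form TCACGTGA, which contains it, was found for 6 members, Ctsa, Ctsd, Gla, Mcoln1, Atp6v0d1 and Atp6v1a, against 1.12% of all genes and 0.974% of windows. Matches were counted whether or not a member was higher in the mutant lines. Atp6v0d1 had fitted differences from vector cells of -0.20 in N154S and 0.00 in R284S cells. Ctsa and Atp6v0d1 are not printed below. The form TCACGTGA with a further G before it and C after it was in 0 of the 27, against 0.37% of genes and 0.326% of windows. GAAA followed after any 2 bases by GAAA, searched on both strands as the letters of interferon response elements, was found for Ctss and Lamp1, against 3.99% of genes and 3.44% of windows. A match here is a description of letters and no evidence of binding.

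The 250 bases before the RefSeq start, outside the transcript, are given 5′ to 3′ on the gene's strand for 6 members, with each CACGTG in capitals, extended to TCACGTGA where all 8 letters match. Gla (chrX:134601006-134601255 on the minus strand) holds TCACGTGA at 228 and 195 bases before the start. Mcoln1 (chr8:3500269-3500518 on the plus strand), Ctsd (chr7:142387828-142388077 on the minus strand) and Atp6v1a (chr16:44139260-44139509 on the minus strand) hold it once, at 46, 99 and 132 bases. Npc2 (chr12:84773113-84773362 on the minus strand) and Gpnmb (chr6:49036268-49036517 on the plus strand), which passed the test in R284S cells beside Gla, hold no CACGTG in this stretch.
Gla: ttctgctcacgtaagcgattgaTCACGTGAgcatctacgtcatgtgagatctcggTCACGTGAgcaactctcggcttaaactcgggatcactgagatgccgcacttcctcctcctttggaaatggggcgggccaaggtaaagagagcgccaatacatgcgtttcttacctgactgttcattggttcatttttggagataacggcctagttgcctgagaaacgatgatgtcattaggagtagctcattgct
Mcoln1: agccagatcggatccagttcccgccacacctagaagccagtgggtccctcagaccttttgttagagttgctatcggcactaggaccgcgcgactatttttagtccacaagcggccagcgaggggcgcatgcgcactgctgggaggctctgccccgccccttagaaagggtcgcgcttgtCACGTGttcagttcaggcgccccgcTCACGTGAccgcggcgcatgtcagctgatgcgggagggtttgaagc
Ctsd: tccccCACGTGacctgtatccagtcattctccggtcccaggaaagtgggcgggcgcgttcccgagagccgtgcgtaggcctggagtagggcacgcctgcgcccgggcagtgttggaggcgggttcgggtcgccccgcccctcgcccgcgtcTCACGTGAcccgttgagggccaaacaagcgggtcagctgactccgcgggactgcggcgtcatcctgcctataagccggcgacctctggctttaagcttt
Atp6v1a: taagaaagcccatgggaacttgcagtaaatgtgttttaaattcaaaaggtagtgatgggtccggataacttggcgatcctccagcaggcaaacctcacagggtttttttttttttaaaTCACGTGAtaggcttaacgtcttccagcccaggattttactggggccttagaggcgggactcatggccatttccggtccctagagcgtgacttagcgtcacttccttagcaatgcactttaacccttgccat
Npc2: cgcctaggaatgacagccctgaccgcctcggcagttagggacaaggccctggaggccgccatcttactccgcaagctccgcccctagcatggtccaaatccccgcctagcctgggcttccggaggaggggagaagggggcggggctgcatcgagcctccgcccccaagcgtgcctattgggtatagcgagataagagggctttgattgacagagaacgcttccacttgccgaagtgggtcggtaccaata
Gpnmb: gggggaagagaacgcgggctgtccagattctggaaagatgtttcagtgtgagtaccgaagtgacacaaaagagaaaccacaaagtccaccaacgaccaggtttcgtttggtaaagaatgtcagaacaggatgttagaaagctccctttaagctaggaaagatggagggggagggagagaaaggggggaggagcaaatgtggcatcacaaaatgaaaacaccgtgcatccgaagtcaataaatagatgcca

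Acid hydrolases formed the largest group, with 13 measured members. Gla, the alpha-galactosidase that removes terminal galactose from globosides and is deficient in Fabry disease, read 8.43, 8.75, 9.39 and 9.37 in control cells and 8.72, 9.29, 9.61 and 9.51 with dsDNA. Both vector arrays were the lowest and all mutant arrays the highest, with the hSTING control between them and hSTING cells with dsDNA near the mutants. The control signal was 1.95-fold higher in N154S and 1.92-fold higher in R284S than in vector cells. Over both treatments Gla rose by 0.93 (SE 0.14, adjusted p = 0.032) in N154S and by 0.87 (SE 0.14, adjusted p = 0.0303) in R284S cells, while the difference of hSTING from vector cells was 0.45 (SE 0.14, adjusted p = 0.493).

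Among the cathepsins, proteases of the lysosome, Ctsb, Ctsl and Ctsd had their highest signals in R284S cells. Ctsb read 11.84, 11.89, 12.20 and 12.40 in control cells and 11.94, 11.98, 12.20 and 12.39 with dsDNA, with vector and hSTING arrays overlapping, N154S arrays above them and R284S arrays higher again. Ctsl, a cysteine protease that also processes other cathepsins, read 10.43, 10.50, 10.76 and 11.10 in control cells and 10.58, 10.50, 10.90 and 11.11 with dsDNA. Its R284S control signal was 1.59-fold that of vector cells, and the fitted difference was 0.60 (SE 0.12, adjusted p = 0.0605), which did not pass. For Ctsb that difference was 0.51 (SE 0.12, adjusted p = 0.0946). Ctsd, the main aspartic protease of lysosomes, read 11.26, 11.32, 11.36 and 11.56 in control cells and 11.25, 11.17, 11.39 and 11.64 with dsDNA, with both R284S arrays the highest and the other 3 lines between 11.17 and 11.39. With trended and robust variances Ctsb and Ctsl passed in both mutant lines and Ctsd in R284S cells against vector, and all 3 passed in R284S against hSTING cells. Among genes at or above the median mean signal, Ctsb and Ctsl passed in R284S cells against vector and Ctsl against hSTING.

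Ctsz, a carboxypeptidase, read 10.20, 10.34, 10.63 and 10.61 in control cells and 10.32, 10.40, 10.64 and 10.60 with dsDNA, with the mutant arrays alike and above all others. Ctsa, the serine carboxypeptidase that protects neuraminidase and beta-galactosidase, read 10.26, 10.24, 10.41 and 10.55 in control cells and 10.25, 10.0, 10.36 and 10.57 with dsDNA, where hSTING cells with dsDNA were the lowest. Ctsh, an aminopeptidase, ranged from 6.92 to 7.27, with the vector arrays and the hSTING control array at the bottom. In this limma fit 0 of the 3 passed, with differences of R284S from vector cells between 0.24 and 0.35. With trended and robust variances Ctsz passed in both mutant lines against vector and Ctsa in R284S against hSTING cells. Ctss, the cathepsin of antigen-presenting cells, was dim at 2.74 to 3.43, so its level was not resolved on these arrays.

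Ctsk, the collagen-degrading cathepsin of osteoclasts and fibroblasts, was lower in the mutant lines. It read 8.11, 8.08, 7.61 and 7.52 in control cells and 8.42, 8.18, 7.53 and 7.70 with dsDNA, and every mutant array lay below every vector and hSTING array. The fitted difference from vector cells was -0.70 (SE 0.14, adjusted p = 0.0689) in N154S and -0.66 (SE 0.14, adjusted p = 0.0703) in R284S cells, neither of which passed. It passed, falling in both lines, when the fit was limited to genes at or above the median mean signal and with trended and robust variances. Fibroblast markers moved with it and, in the opposite direction, with the members that were higher in the mutant lines. The summed log2 signal of the 10 markers was 102.51 to 102.88 in vector, 98.43 to 100.69 in hSTING, 94.59 to 96.67 in N154S and 93.69 to 93.78 in R284S cells. That sum was lower in hSTING than in vector cells too, where 16 members were positive and 16 negative. Fn1 did not follow the sum in R284S cells, where it read 12.09 and 12.15 against 12.05 and 12.04 in vector cells. In N154S cells it read 11.93 and 11.70. Every other marker of the list was lower on both R284S arrays than on both vector arrays. Vim differed little, at 12.64 and 12.52 in R284S against 12.78 and 12.80 in vector cells. No fibroblast marker was dim on any array, and the part of the lower sum in these results was not tested.

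The glycosidases other than Gla varied less. Gusb, the beta-glucuronidase, read 8.09, 8.06, 8.11 and 8.42 in control cells and 8.09, 7.87, 7.92 and 8.37 with dsDNA, with the R284S arrays above the rest. Man2b1, the alpha-mannosidase, ranged from 7.78 to 8.24 and the sialidase Neu1 from 6.77 to 7.0. Hexa, the alpha subunit of beta-hexosaminidase, read 9.72, 9.85, 9.74 and 9.52 in control cells and 9.69, 9.63, 9.71 and 9.57 with dsDNA with both R284S arrays the lowest. Fitted differences of R284S from vector cells were 0.31, 0.20, 0.19 and -0.16 for the 4 genes, and none passed.

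Of the genes for lipid export, activators and secreted precursors, Npc2, the soluble protein that hands cholesterol to NPC1 in the lysosome, read 10.02, 10.45, 10.84 and 10.82 in control cells and 10.11, 10.84, 11.10 and 10.81 with dsDNA. The vector arrays were the lowest and the other 3 lines lay above them without overlap. Npc2 rose by 0.91 (SE 0.14, adjusted p = 0.0348) in N154S and by 0.75 (SE 0.14, adjusted p = 0.0495) in R284S cells, and the difference of hSTING from vector cells was 0.58 (SE 0.14, adjusted p = 0.391). With each array centred on its median, the R284S value did not pass (adjusted p = 0.0508). Npc1, the membrane transporter that takes over that cholesterol, read 7.60, 7.63, 7.69 and 7.97 in control cells and 7.92, 7.60, 7.69 and 8.01 with dsDNA, and its differences from vector cells were -0.15, -0.07 and 0.23 in hSTING, N154S and R284S cells.

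Grn, which encodes progranulin, the precursor of lysosomal granulins, read 11.06, 11.34, 11.64 and 11.36 in control cells and 11.06, 11.60, 11.68 and 11.41 with dsDNA. Its highest arrays were those of N154S cells and of hSTING cells with dsDNA, and R284S arrays were lower than N154S arrays. The fitted difference from vector cells was 0.60 (SE 0.13, adjusted p = 0.0818) in N154S and 0.33 (SE 0.13, adjusted p = 0.301) in R284S cells. Psap, the precursor of the saposins that present lipids to hydrolases, read 10.93, 11.05, 11.22 and 11.39 in control cells and 11.05, 11.11, 11.14 and 11.36 with dsDNA, with the R284S arrays on top. Neither gene passed in this fit, while with trended and robust variances Grn passed in N154S and Psap in R284S cells, as did Grn in N154S cells among genes at or above the median mean signal.

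Gpnmb, a transmembrane glycoprotein of endosomes and lysosomes that is induced in lysosomal stress and storage, had the largest fitted difference of R284S from vector cells among the members. It read 9.28, 9.34, 9.81 and 10.18 in control cells and 9.36, 9.28, 9.99 and 10.21 with dsDNA. Vector and hSTING arrays lay together, N154S arrays above them and R284S arrays higher again, with no overlap between these 3 levels. The R284S control signal was 1.87-fold that of vector control cells. Gpnmb rose by 0.88 (SE 0.12, adjusted p = 0.019) against vector and by 0.89 (SE 0.12, adjusted p = 0.0305) against hSTING cells, where 0.509% of all genes rose, 0.442% fell and no other member passed, while 16 of 32 members and 13.7% of all genes had an unadjusted p under 0.05. Its difference of N154S from vector cells was 0.58 (SE 0.12, adjusted p = 0.0831), and from hSTING cells 0.59 (SE 0.12, adjusted p = 0.26). With trended and robust variances both of these passed, and among genes at or above the median mean signal the difference from vector cells did. Gpnmb is also abundant in melanocytes and osteoclasts, whose markers were dim on every array in 6 of 6 and 5 of 6 cases, and their part in the result was not tested. Their summed log2 signals were 18.23 to 19.35 in vector and 18.31 to 18.71 in R284S cells for 6 melanocyte genes, and 20.26 to 20.74 and 19.89 to 20.6 for 6 osteoclast genes.

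**Figure D2:**
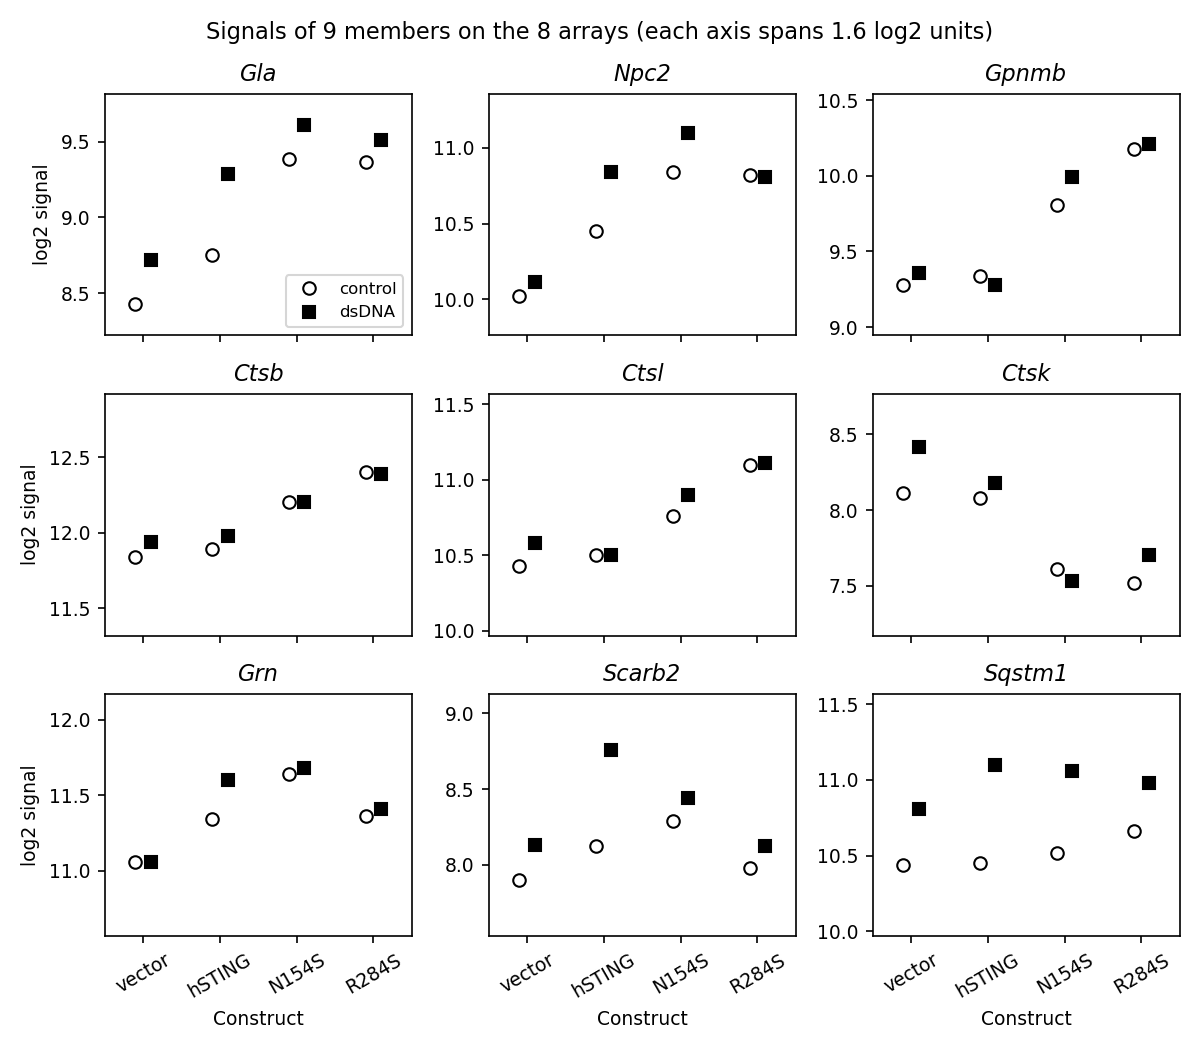
Log2 signal of 9 members (vertical axes, each spanning 1.6 log2 units) by construct (horizontal axes), with open circles for control cells and filled squares for dsDNA, 1 array each. Gla and Npc2 are lowest in vector cells, Gpnmb, Ctsb and Ctsl step up to R284S, Ctsk steps down in the mutant lines, and Sqstm1 is higher with dsDNA in every line.

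Among the other membrane glycoproteins, Lamp1, an abundant protein of the lysosomal membrane, read 11.08, 11.19, 11.36 and 11.40 in control cells and 11.09, 11.13, 11.29 and 11.39 with dsDNA, with the mutant arrays above the rest. Lamp2, which also serves chaperone-mediated autophagy, read 9.77, 9.93, 10.26 and 10.11 in control cells and 10.0, 10.16, 10.44 and 10.26 with dsDNA. The N154S arrays were the highest of their treatment, and the fitted difference from vector cells was 0.47 (SE 0.11, adjusted p = 0.122) in N154S and 0.30 (SE 0.11, adjusted p = 0.295) in R284S cells. Scarb2, the receptor that carries glucocerebrosidase to lysosomes, read 7.90, 8.12, 8.29 and 7.98 in control cells and 8.13, 8.76, 8.44 and 8.12 with dsDNA, with hSTING cells after dsDNA as the highest array. Cd68, a glycoprotein common in macrophages, read 6.01, 5.77, 6.10 and 6.32 in control cells and 6.0, 6.07, 5.96 and 6.52 with dsDNA, and Cd63, a tetraspanin of late endosomes, stayed between 10.31 and 10.47. Cd68 differed by 0.42 (SE 0.15, adjusted p = 0.26) between R284S and vector cells, while the macrophage markers summed to 44.62 to 45.36 in vector and 42.91 to 45.38 in R284S cells. In this limma fit 0 of these 5 genes passed, while with trended and robust variances Lamp2 passed in N154S and Lamp1 in R284S cells against vector, as did Lamp2 in N154S cells among genes at or above the median mean signal.

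The channel and pump genes were split. Mcoln1, the calcium channel TRPML1 of the lysosomal membrane, read 7.77, 7.78, 8.02 and 8.11 in control cells and 7.76, 7.45, 7.99 and 8.14 with dsDNA. Atp6v1a, the catalytic subunit of the V-ATPase, read 8.79, 8.77, 9.19 and 9.29 in control cells and 8.92, 8.78, 9.11 and 9.38 with dsDNA. Both were higher on all mutant arrays than on any other, with fitted differences of R284S from vector cells of 0.36 (SE 0.14, adjusted p = 0.292) and 0.48 (SE 0.12, adjusted p = 0.121). Atp6v1a passed in R284S cells against vector and against hSTING both with trended and robust variances and among genes at or above the median mean signal. Atp6v0d1, of the membrane sector, read 9.97, 10.01, 9.87 and 10.10 in control cells and 10.05, 9.61, 9.75 and 9.92 with dsDNA, with hSTING cells after dsDNA the lowest, and its difference of R284S from vector cells was 0.00. Atp6v1h, a regulatory subunit, ranged from 7.23 to 7.65 with a corresponding difference of -0.03. Tfeb itself was dim, at 3.63 to 4.03, and its mRNA carries no information on the protein's location.

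In the additive limma fit 0 of the 4 autophagy genes passed in a comparison between lines. Sqstm1, the receptor p62 that carries ubiquitinated cargo and is an NRF2 and TFEB target, read 10.44, 10.45, 10.52 and 10.66 in control cells and 10.81, 11.10, 11.06 and 10.98 with dsDNA. Map1lc3b, which encodes LC3B of the autophagosome membrane, read 10.31, 10.19, 10.36 and 10.60 in control cells and 10.33, 10.14, 10.33 and 10.57 with dsDNA, with the R284S arrays above the rest and a difference of 0.27 (SE 0.11, adjusted p = 0.354) from vector cells. Gabarapl1, of the same protein family, ranged from 8.12 to 8.56, and Becn1, a subunit of the kinase complex that starts autophagosome formation, from 6.87 to 7.41. Between lines 1 difference, that of Map1lc3b between R284S and hSTING cells, had an unadjusted p under 0.05, and it passed with trended and robust variances.

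**Figure D3:**
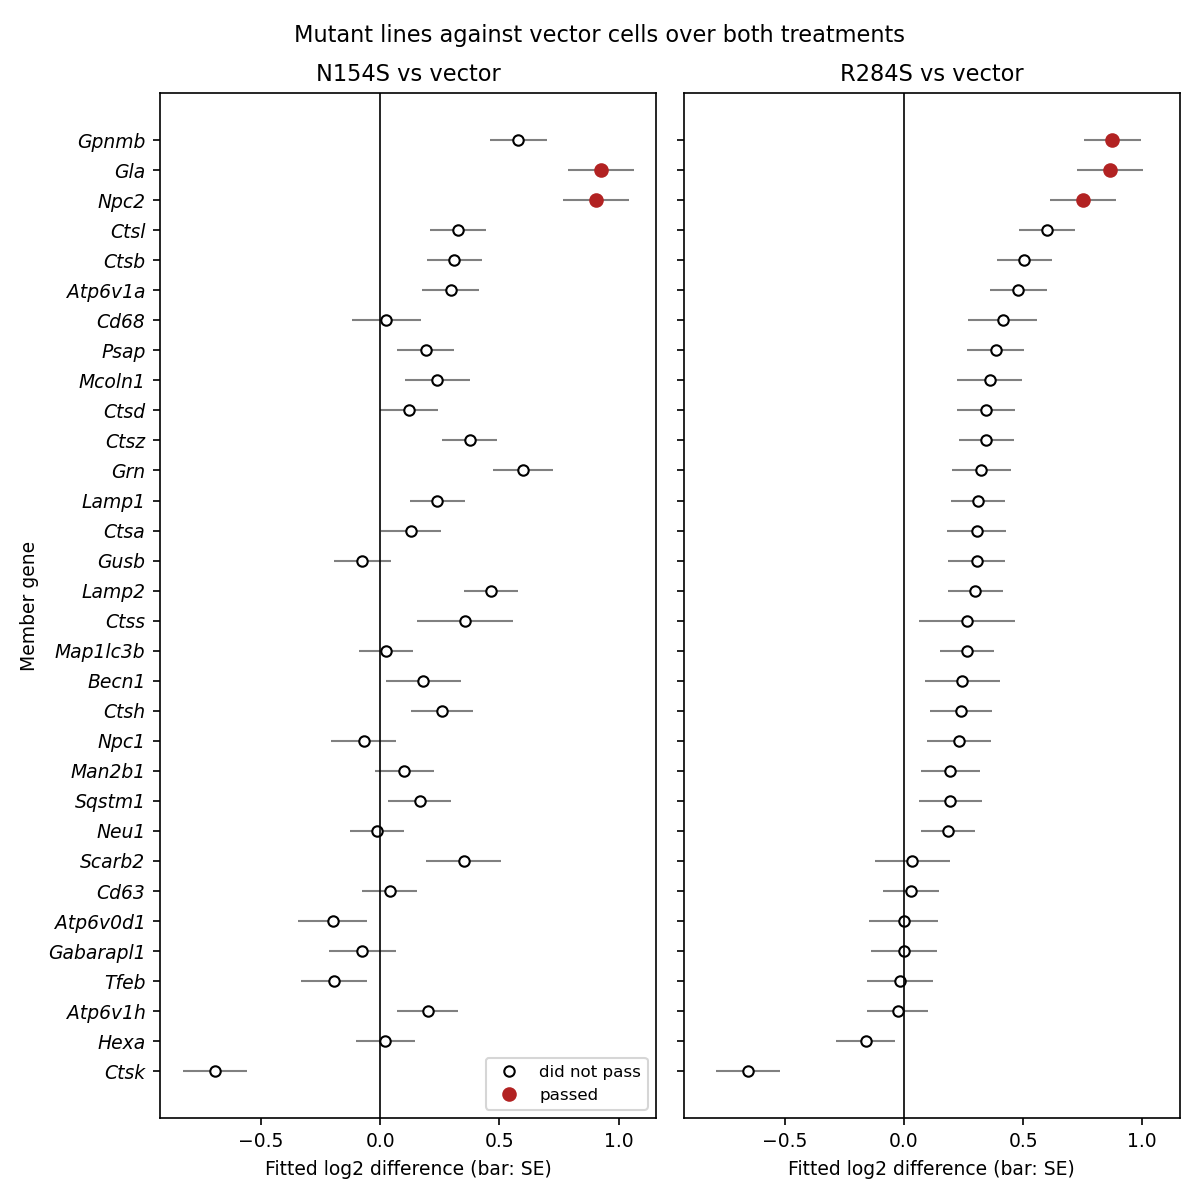
Fitted log2 differences from vector cells over both treatments for the 32 members (rows), in N154S (left) and R284S cells (right), with SE as horizontal bars and filled points for members that passed. Most points lie right of 0 in both panels, Gpnmb passes in R284S cells, Gla and Npc2 in both, and Ctsk lies farthest to the left.

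Leaving out arrays ended these calls. Without any single vector, N154S or R284S array, or without the R284S pair, Gla and Npc2 did not pass in N154S cells (adjusted p from 0.055 to 0.336), and without any of the same 6 arrays or the N154S pair the 3 calls in R284S cells did not (0.0626 to 0.364). The call of Gpnmb against hSTING cells was lost without any single array other than the hSTING control, and without the vector or N154S pair (0.0706 to 0.261). The fitted differences behind the calls kept their sign throughout. They lay between 0.84 and 0.98 for Gla and Npc2 in N154S cells, between 0.62 and 0.97 for the 3 calls of R284S against vector, and between 0.81 and 0.96 for Gpnmb against hSTING.

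The mutant lines were also set against each other. Over both treatments 0 members passed for R284S against N154S in limma, where 0.00451% of all genes rose and 0.00451% fell, and 3 members, Gusb, Cd68 and Gpnmb, had an unadjusted p under 0.05, all higher in R284S, where 7.07% of all genes did, so that 3 of 32 is near the background. The 2 R284S arrays lay above both N154S arrays for 16 members, against 19.8% of all genes, among them Ctsa, Ctsb, Ctsd, Ctsl, Gusb, Psap and Map1lc3b. They lay below them for 7, against 17.5%, namely Ctsh, Ctsz, Hexa, Npc2, Grn, Scarb2 and Atp6v1h. The largest of these negative differences were -0.32 (SE 0.16, adjusted p = 0.727) for Scarb2 and -0.28 (SE 0.13, adjusted p = 0.712) for Grn. Against hSTING cells, N154S had 26 positive and 5 negative members with a median of 0.13, against 0.01 for all genes. R284S had 25 and 7 with a median of 0.24, against 0.02. Of all genes 51.8% and 51.7% were positive in these 2 comparisons, and 53.7% and 55.5% of those at or above the median mean signal. Both R284S arrays were above both hSTING arrays for 19 members (21.6% of all genes) and below for Ctsk and Hexa (17.3%), and both N154S arrays above for 16 (17.5%) and below for Ctsk and Neu1 (14.9%). For N154S against hSTING 0 members and 0 of all genes passed in limma, while 7 members and 8.9% of all genes had an unadjusted p under 0.05, and with trended and robust variances Gpnmb passed.

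No member passed the test for dsDNA. Over the 4 lines 22 members had a positive difference and 10 a negative one, with a median of 0.05 against 0.00 for all genes. Of all genes 49.2% were positive, and 41.6% of those at or above the median mean signal. In limma 0 members passed, as did 0 of all genes. Of the members 5 had an unadjusted p under 0.05, as had 10.8% of all genes, and these 5, Sqstm1, Gla, Scarb2, Atp6v1h and Lamp2, were also the ones with a positive difference in each of the 4 lines, against 9.82% of all genes. Neu1 was the member with a negative difference in each line, against 10.4% of all genes. Sqstm1 was higher with dsDNA by 0.37, 0.65, 0.54 and 0.32, an average of 0.47 (SE 0.09, adjusted p = 0.448). The vector line, with no STING construct, had a difference in Sqstm1 near that of R284S cells. That difference was smaller than those of hSTING and N154S cells. For Gla the differences were 0.29, 0.54, 0.22 and 0.14, and for Scarb2 0.23, 0.64, 0.15 and 0.14.

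By line, members differed most between dsDNA and control in hSTING cells, as all genes did. Sqstm1 was there 1.57-fold and Scarb2 1.56-fold higher with dsDNA, the 2 members past 1.5-fold in any line, against 4.3% of all genes higher and 3.53% lower by that much in hSTING cells. In vector cells 0 members passed it (0.523% of all genes higher and 0.464% lower), as in N154S cells (1.32% and 1.08%) and R284S cells (0.37% and 0.388%). These shares also include dim genes, which the count leaves out, and so understate the background for the members. In hSTING cells Becn1 differed by 0.40, Npc2 by 0.39, Gabarapl1 by 0.37 and Grn by 0.26, while Atp6v0d1 was at -0.40, Mcoln1 at -0.33 and Ctsa at -0.24. The median size of a member's difference was 0.18 in hSTING, 0.10 in vector, 0.09 in N154S and 0.05 in R284S cells, where it was 0.21, 0.14, 0.17 and 0.14 for all genes. Ifnb1, the interferon beta gene that marks acute STING signalling, read 3.18, 3.21, 2.82 and 4.06 in control cells and 3.18, 8.80, 4.95 and 3.04 with dsDNA. When the dsDNA effect in the 3 STING lines was tested against that in vector cells, 0 members and 0 of all genes passed in limma, and 1 member, the dim Ctss, had an unadjusted p under 0.05, against 3.6% of all genes.

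**Figure D4:**
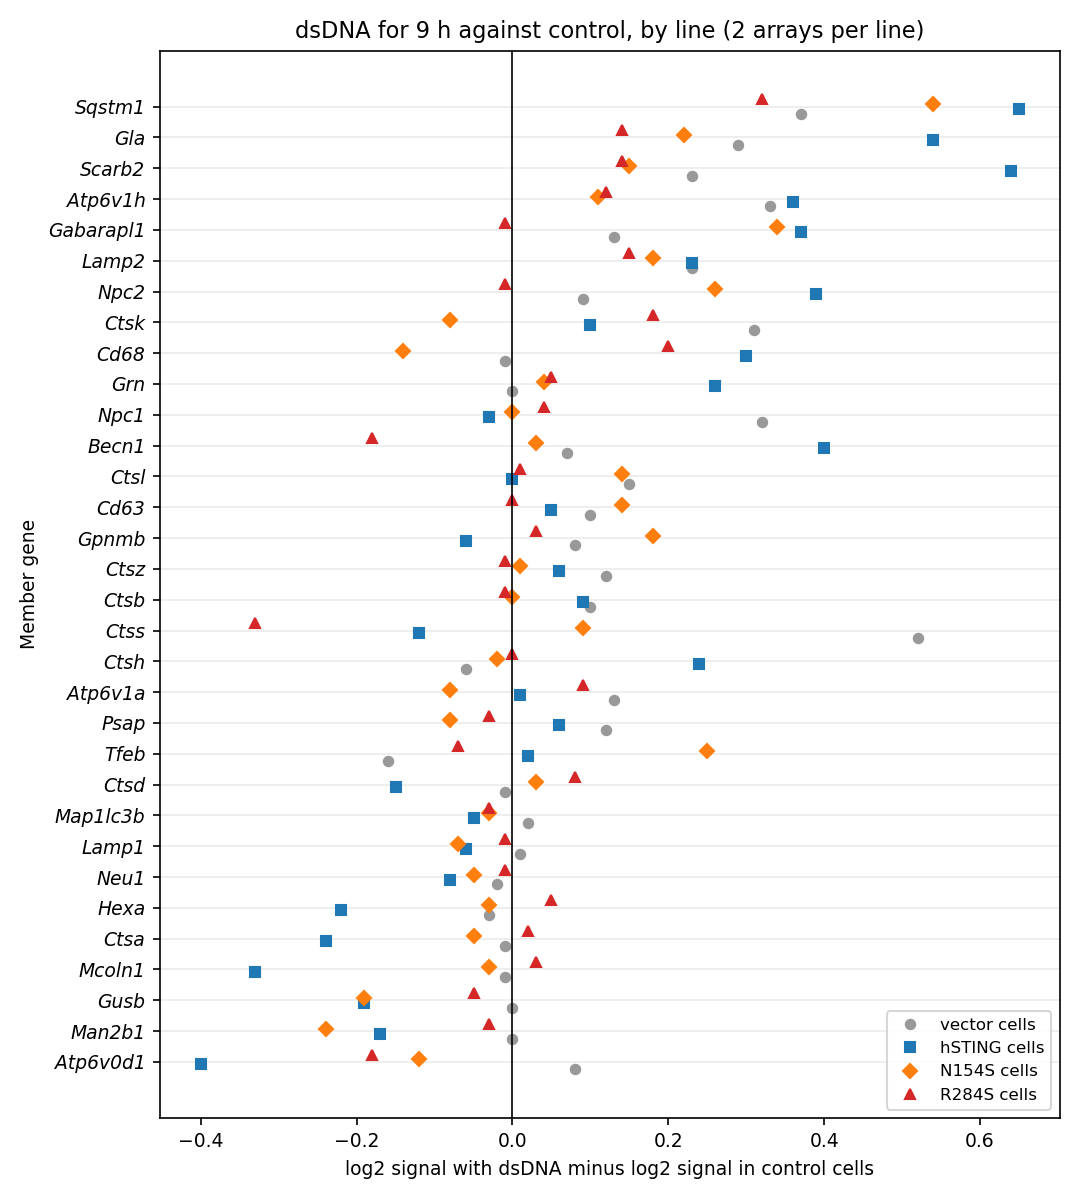
Log2 signal with dsDNA minus log2 signal in control cells (horizontal axis) for the 32 members (rows, ordered by their mean over the lines), with a symbol for each line. Sqstm1, Gla and Scarb2 lie right of 0 in all 4 lines, and the hSTING symbols reach farthest to either side.

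To place the members among their pathway, 149 further lysosome and autophagy genes were read from lists of hydrolases, membrane proteins, V-ATPase subunits, sorting and fusion factors, core autophagy genes, receptors and MTORC1 regulators. These lists, too, were chosen with earlier results of these data known. In R284S cells 11 of the 149 rose against vector cells and 0 fell, beside 1.02% of all genes in each direction, and 111 had a positive difference with a median of 0.13. Of all genes, 51.4% were positive there. In N154S cells 1 rose, near the background of 0.708% of all genes, 0 fell, and 91 were positive, against 50.2% of all genes. In hSTING cells 0 passed, against 0.0992% of all genes that rose, and 52 were positive, against 46.8%. By list, R284S cells had 4 of 9 autophagy receptors rising, 4 of 34 hydrolases, 2 of 20 membrane proteins and 1 of 21 MTORC1 regulators, and 0 of 12 V-ATPase subunits, 0 of 25 sorting and fusion genes and 0 of 28 core autophagy genes.

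The largest of these was Rragd, a Rag GTPase that recruits MTORC1 to lysosomes and a known TFEB target, which read 5.57, 5.47, 5.86 and 6.89 in control cells and 5.78, 5.30, 6.29 and 7.57 with dsDNA. It rose by 1.56 (SE 0.20, adjusted p = 0.0162) against vector and by 1.85 (SE 0.20, adjusted p = 0.0151) against hSTING cells. Laptm4b, a lysosomal membrane protein, read 9.33, 9.35, 10.06 and 10.78 in control cells and 9.33, 10.13, 10.55 and 10.91 with dsDNA and rose by 1.52 (SE 0.20, adjusted p = 0.0163). Hydrolase genes that rose included Ctsc, the dipeptidyl peptidase that activates granule proteases, by 1.15 (SE 0.14, adjusted p = 0.0139) in R284S and 0.97 (SE 0.14, adjusted p = 0.0313) in N154S cells, and Ctso by 0.82 (SE 0.15, adjusted p = 0.0479). Ctsc read 7.63, 7.89, 8.52 and 8.70 in control cells and 7.57, 8.28, 8.61 and 8.79 with dsDNA, with both vector arrays the lowest.

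Among the autophagy receptors, the mitophagy receptor Bnip3, also a hypoxia-induced gene, read 7.15, 6.96, 7.91 and 8.57 in control cells and 7.23, 6.98, 7.83 and 8.75 with dsDNA. It rose by 1.47 (SE 0.12, adjusted p = 0.00362) against vector and 1.69 (SE 0.12, adjusted p = 0.0054) against hSTING cells, with the N154S arrays between. The endoplasmic reticulum receptor Retreg1 read 6.15, 5.95, 6.62 and 7.02 in control cells and 6.10, 6.05, 6.58 and 6.95 with dsDNA and rose by 0.86 (SE 0.12, adjusted p = 0.0183) and 0.99 (SE 0.12, adjusted p = 0.0202). Calcoco1 rose by 0.77 and 0.94, and the thioesterase Ppt1 by 0.63 and 0.74. Nbr1, Aga and Cln3, named after their values were seen, complete the 11 and rose by 0.74, 0.75 and 0.75 against vector cells. The summed log2 signal of 6 epithelial markers was higher in R284S cells (24.63 to 25.1) than in vector cells (22.92 to 22.99), and its part in these results was not tested. In control cells that sum was not a rise of the whole list. Cldn4, singled out after its values were seen, read 3.79, 4.0, 4.65 and 5.5 in control cells and 4.23, 4.36, 4.75 and 5.43 with dsDNA, and carried the difference in control cells. There Cdh1, Epcam and Krt18 were lower in R284S than in vector cells (4.20, 2.24 and 4.45 against 4.21, 2.37 and 4.58). Krt8 and Krt14 were slightly higher (5.08 and 3.16 against 4.90 and 3.14). With dsDNA Krt18 alone was lower in R284S than in vector cells (4.52 against 4.63). Cdh1, Epcam, Krt8, Krt14 and Cldn4 were higher there (4.09, 2.45, 5.14, 3.47 and 5.43 against 4.04, 2.3, 5.01, 2.71 and 4.23). Of the 6 markers, 3 were dim on every array.

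Bnip3 passed against vector cells under all 15 alternatives (adjusted p up to 0.0467), and against hSTING cells it was lost without either R284S array (0.0578 and 0.0716). The other 10 calls against vector cells in R284S cells were lost without any single vector, N154S or R284S array or the N154S pair, and Ctso also without either hSTING array or that pair (0.0512 to 0.365). Ctsc in N154S cells was lost without any single vector, N154S or R284S array or the R284S pair (0.0611 to 0.31). Against hSTING cells, Calcoco1 and Retreg1 were lost without any array but the hSTING control and without the vector or N154S pair, Ppt1 without any array and without each pair that can be left out, and Rragd without the N154S or R284S arrays, the hSTING dsDNA array or the N154S pair (0.0572 to 0.325). The alternatives are not independent checks. Leaving out either array of a construct outside a comparison gives the same fit as leaving out its pair. With each array centred on its median, Cln3 (0.056) and Ppt1 (0.0535) did not pass against vector cells.

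**Figure D5:**
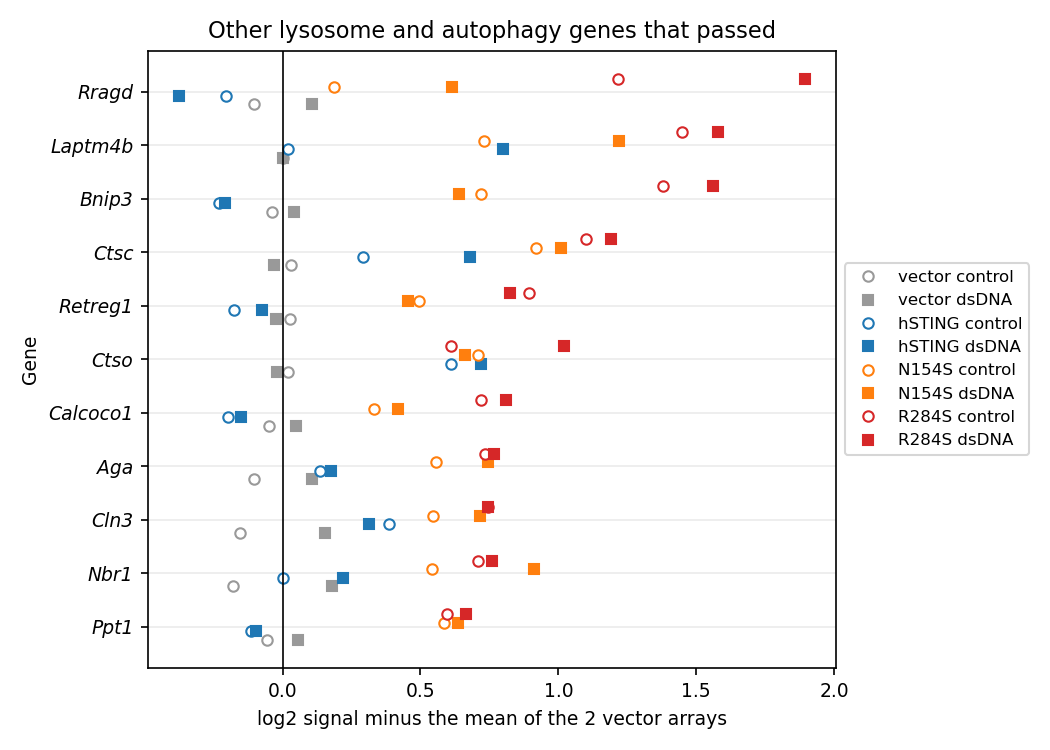
Log2 signal minus the mean of the 2 vector arrays (horizontal axis) for the 11 further lysosome and autophagy genes that passed in R284S cells (rows), with open circles for control cells, filled squares for dsDNA and a colour for each line. For Bnip3, Calcoco1, Cln3, Ctsc, Laptm4b, Retreg1 and Rragd both R284S arrays lie to the right of all arrays of the other lines.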

How the data were processed

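RNA from 8 cultures was measured on Affymetrix arrays, from 300 ng each with the GeneChip WT PLUS kit, per the labels' protocols. The authors used Expression Console 1.3.1.187 by Affymetrix, per the submitters' processing notes, and which of its algorithms and background corrections they chose is not given there. The deposited values are log2 signals of 41345 probe sets, with array medians from 3.79 to 3.85 and nearly equal distributions on all arrays.

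Names came from the platform annotation supplied with the values. The 23521 probe sets with 1 symbol were used, 1814 had several and 16010 are not listed there. The probe set with the highest mean was taken per gene. Entrez identifiers of all 32 members matched the same symbol in RefSeq (GRCm38.p6).

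Fits used limma 3.58.1 in R 4.3.3 (lmFit, eBayes) with 3 residual and 4.03 prior degrees of freedom, and 2 and 4.16 for the test of the dsDNA effect in STING lines against vector cells. The fit was tried on data simulated with independent noise around additive means. Those data do not hold the unequal dsDNA response of the lines, so the trial is no check of the p-values given here. Folds of 2 arrays were counted at 1.5, where the brighter of both signals reached its array's median. Alternatives were variance moderation, a filter on dim genes, probe set averaging, scaling, and leaving out arrays or the pair of a construct. Members could all be named, further genes if they passed (up to 6 per comparison). The members and lists were chosen with earlier results of these data known. Promoter windows are RefSeq's for GRCm38.p6.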

Additional observations from a re-analysis of the deposited data

How the results depend on the processing

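No paired analysis beyond the fit was run. With construct and treatment as terms, the fit already compares dsDNA and control arrays within each line, and each combination had a single array. With trended and robust variances, the members that passed became 9 for N154S against vector (8 rose and Ctsk fell), 11 for R284S against vector (10 rose and Ctsk fell), 1 for N154S against hSTING and 7 for R284S against hSTING. Calls over all 22180 genes grew too. For N154S against vector they went from 157 rising and 135 falling to 291 and 435. For R284S against vector they went from 226 and 227 to 392 and 462. Against hSTING they went from 0 and 0 to 48 and 77 in N154S, and from 113 and 98 to 322 and 262 in R284S. With only genes at or above the median mean signal the members that passed became 6, 7 and 3 for N154S against vector, R284S against vector and R284S against hSTING, in place of 2, 3 and 1, with fewer genes tested. Of those 11091 genes, 290 rose and 372 fell in the first of these comparisons. In the second 368 rose and 393 fell, and in the third 252 and 203. Leaving out single arrays or construct pairs gave 0 to 2, 0 to 3 and 0 to 1 members passing for these comparisons, and 0 to 0 for the other 5. Without the filter on the brighter array, 1 member, the dim Ctss, in place of 0 passed 1.5-fold for hSTING against vector control cells. The other alternatives for the 18 counts of members stayed within 1.5 times, 130 of 161 in all. For the 23 calls of single genes, 182 of 345 alternatives passed, 163 did not, and 0 changed sign. Some of these alternatives are exact repeats, since leaving out either array of a construct outside a comparison gives the same fit as leaving out its pair. With centred or re-quantiled arrays, the members whose fitted difference changed sign had sizes of at most 0.03. The median of the members kept its sign except for hSTING against vector, which was at 0.00 and went to -0.01 with centring.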
